A study of Mus musculus with 8 samples.

Results

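Chemokines and their receptors were examined in lung endothelial cells (ECs) of neonatal mice. The genes were taken from the deposited count table by name, as the protein-coding rows whose symbol begins with Ccl, Cxcl, Cx3cl, Xcl, Ccr, Cxcr, Cx3cr, Xcr or Ackr followed by a number. The selection left out 1 further row, which is not analysed here. This gave 66 rows of 54532 in the table, with 60 distinct symbols, because 7 rows lay on unplaced scaffolds of the genome and some of these carried the same symbol as another row. Of the 66 rows, 43 were ligands and 23 were receptors. Bulk RNA-seq had been done on 8 libraries, 4 from pups kept in normoxia (room air, 21% O2) and 4 from pups kept in hyperoxia (80% O2). Exposure ran from postnatal day 0 to day 14, the lungs were taken at day 14, and all pups were wild type (WT). High oxygen after birth is used in mice to model bronchopulmonary dysplasia, a lung disease of premature infants. Per the study's methods, cells that bound CD45-coated beads, which hold leukocytes, were removed from the lung suspension, and cells that then bound CD31-coated beads were kept as ECs, so that cells of other types which stayed with these beads were sequenced too.

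Chemokines are small secreted proteins that guide migrating cells, and they are named by the spacing of their first cysteines (CC, CXC, CX3C and XC). Typical chemokine receptors are G protein-coupled receptors, found mostly on leukocytes, that signal through inhibitory G proteins. Atypical receptors (Ackr) bind chemokines without this G protein signal and take them up or carry them, which shapes how much ligand is left around the cell. In the lung, ECs carry several atypical receptors and display chemokines on the vessel wall, while epithelial cells and macrophages secrete many of the ligands that attract neutrophils and monocytes.

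The libraries held 16098086 to 18300730 counts, and the totals did not separate the groups (exact permutation test, two-sided, p = 0.457, smallest possible p 0.0286). The labels do not say that libraries came from separate animals, and 5 of the 8 libraries held both Xist counts (8457 to 16982) and counts of 4 Y-linked genes (1553 to 2413), while normoxia 2 and hyperoxia 4 had 3 and 5 Xist counts and hyperoxia 3 had 7 Y-linked counts. The p-values below therefore measure only the spread between these libraries. The labelled cell type was checked with 8 pan-endothelial markers (Cdh5, Pecam1 and others), which summed to 14982 to 15875 CPM in normoxia and 14452 to 15238 CPM in hyperoxia (CPM, the count scaled to a common library total after TMM normalization). Of these 8 markers, 2 rose and 3 fell, among them Tek, from a mean of 1182 to 682 CPM (log2 -0.79, edgeR adjusted p = 6.35e-06). Markers of other cells were lower but present. The 9 alveolar type 2 (AT2) markers, of the surfactant-making epithelial cell, summed to 247 to 344 CPM in normoxia and to 2314, 2281, 777 and 2034 CPM in hyperoxia 1 to 4, and all 9 rose. The 6 lymphatic EC markers summed to 1249 to 1338 CPM in normoxia and 1878 to 2133 CPM in hyperoxia, and all 6 rose. Lyve1 made up most of this sum (mean 954 and 1602 CPM). Pdpn was the only 1 of the 6 with a log2 fold change above 1 (2.47). Within hyperoxia Pdpn was lowest in hyperoxia 3 (3.84 CPM), as was the alveolar type 1 marker sum (129 CPM). For Mmrn1, Reln and Prox1 the groups overlapped, with hyperoxia 1 within the normoxia range. The 6 pan-leukocyte markers summed to 93.9 to 237 CPM in normoxia and 118 to 236 CPM in hyperoxia, and none of the 6 passed the test. Of the other lists, 4 of 6 venous EC, 4 of 4 alveolar type 1, 4 of 6 fibroblast, 6 of 7 mural and 2 of 3 dendritic markers rose, and none of 8 lymphocyte, 6 neutrophil and 1 club cell markers passed. The dendritic markers that rose were Clec9a (mean 94.6 to 107 CPM, log2 0.17) and Itgax (2.52 to 5.71 CPM). Flt3 and Cd209a were near the floor, at means of 0.539 and 0.222 CPM over all libraries. No list had a defining marker at 0 in all libraries. In bulk RNA, a change in the number of cells of a type and a change in RNA per cell cannot be told apart.

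The ligands that changed in hyperoxia rose. The receptors changed in both directions, by adjusted p alone at about the shares of all genes. Of the 66 rows, 33 passed the filter on low counts and were tested (edgeR quasi-likelihood test, Benjamini-Hochberg adjustment over 15564 genes). Of the 33, 14 (42.4%) passed an adjusted p of 0.05, against 35.6% of all genes tested. Of these, 12 (36.4% of 33) were higher in hyperoxia, against 18.5% of all genes, and 2 (6.06%) were lower, against 17.1% of all genes. With a log2 fold change of 1 or more in size as well, 9 were called, against 6.98% of all genes, of which 7 were called higher, against 5.62% of all genes, and 2 were called lower, against 1.36%. The CPM of the groups did not overlap for 9 higher genes (17.8% of all genes) and 2 lower genes (17.6% of all genes). The median log2 fold change was 0.58 over the 33 genes and -0.0040 over all genes tested. Among the 21 tested ligands, 10 rose (47.6%, against 18.5% of all genes) and none fell (against 17.1%), with a median of 0.64. Among the 12 tested receptors, 2 rose (16.7%, against 18.5% of all genes) and 2 fell (16.7%, against 17.1%), with a median of 0.12. By adjusted p alone the receptor shares were thus near those of all genes. With the fold threshold as well, 1 of the 12 receptors was called higher, against 5.62% of all genes. Of the same 12, 2 were called lower, against 1.36%.

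**Figure D1:**
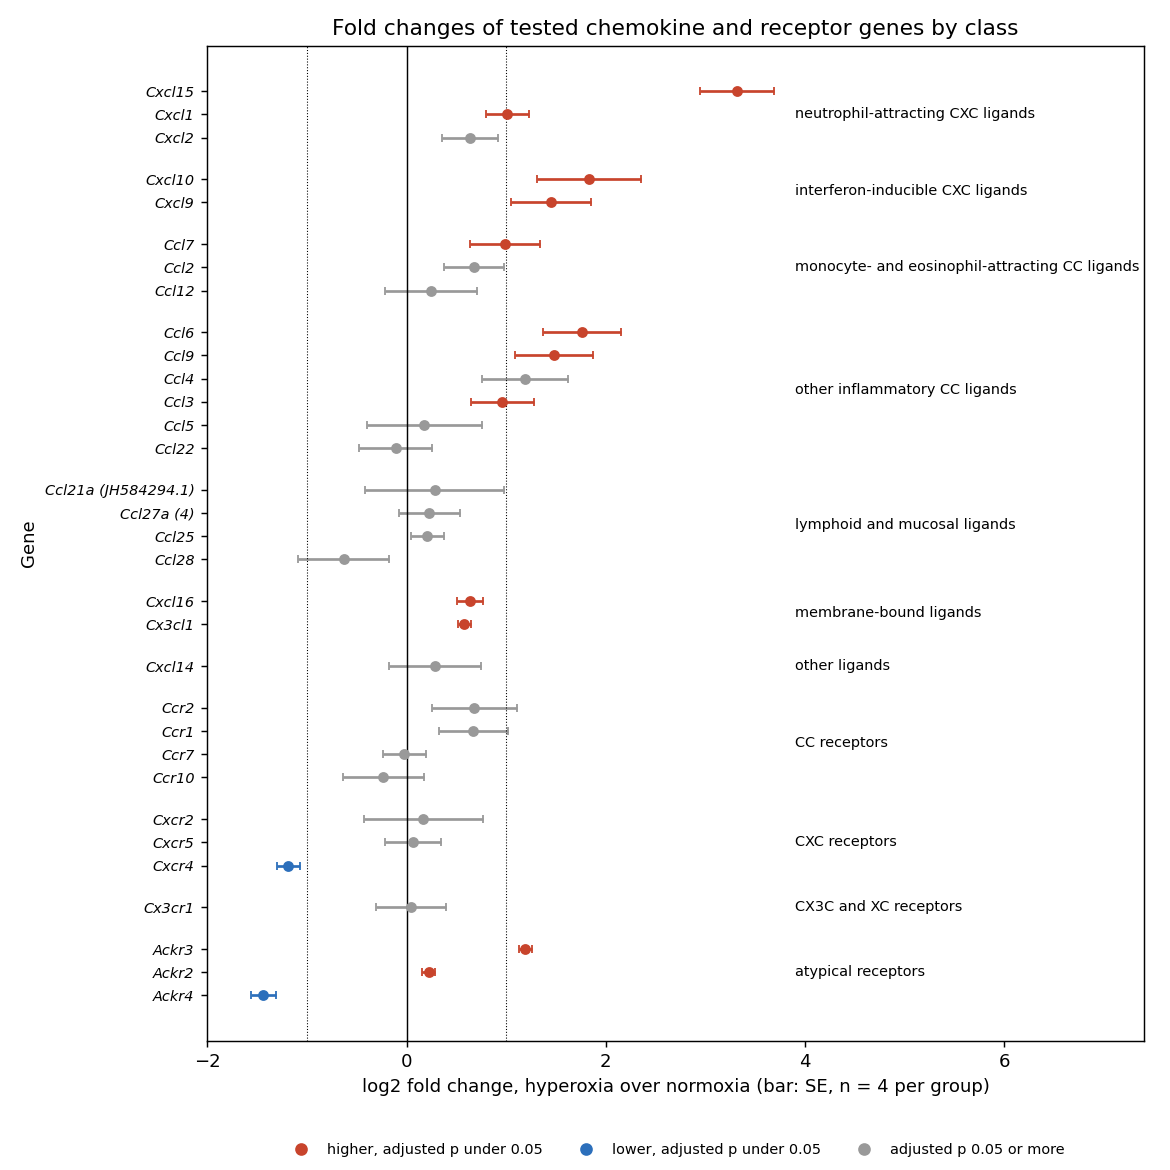
Log2 fold changes (hyperoxia over normoxia, x axis) of the tested genes that are reported by name (y axis), grouped by class, with bars of 1 SE from the fit on 4 libraries per group and dotted lines at 1 and -1. The 10 ligands past the threshold lie to the right, Cxcl15 furthest at 3.32, while Ackr4 at -1.44 and Cxcr4 at -1.19 lie to the left.

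When an AT2 score (the mean log2 CPM of the 9 AT2 markers) was added to the fit, 2 genes were higher and 1 was lower, and 191 genes passed the threshold of all genes tested, in place of 5535. This score differed between the groups without overlap, so the score and the group cannot be fully told apart in that fit. Of the genes followed through the alternative fits, those that no longer passed with this score have the value from that fit beside them. Cell-type markers were not among these genes.

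All 3 tested atypical receptors passed an adjusted p of 0.05, against 35.6% of all genes tested. Ackr3, an atypical receptor that shares a ligand with Cxcr4 and takes it up from outside the cell, was the most abundant of the 66 rows by FPKM (fragments per kilobase of gene length, a level that can be compared between genes). Its gene lies at chr1:90203980-90216751 (GRCm38, ENSMUSG00000044337). Ackr3 stood at 199, 199, 213 and 189 CPM in normoxia 1 to 4 and at 407, 501, 460 and 460 CPM in hyperoxia 1 to 4. Every hyperoxia library lay far above every normoxia library. The mean rose from 200 ± 9.88 to 457 ± 38.7 CPM (SD, n = 4 each), a 2.28-fold change (log2 1.19, SE 0.0657, edgeR adjusted p = 6.52e-07), and from 59.2 to 136 FPKM. In 20 alternative fits its log2 fold change stayed between 1.15 and 1.24, and it passed the threshold in all of them, the AT2 score included.

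Ackr4 (chr9:104084157-104126933, ENSMUSG00000079355), a scavenger of Ccl19, Ccl21 and Ccl25, moved the other way. It stood at 15.9, 16.8, 16.7 and 15.5 CPM in normoxia and 7.37, 5.72, 4.87 and 5.99 CPM in hyperoxia. There was no overlap, and the normoxia libraries differed little among themselves. The mean went from 16.2 ± 0.635 to 5.99 ± 1.04 CPM (SD, n = 4 each; 0.369-fold, log2 -1.44, SE 0.122, edgeR adjusted p = 1e-05). It also passed in all 20 alternative fits, at -2.07 to -1.35. Exons of Acad11 on the opposite strand cover 8.90% of the exon bases of Ackr4, and because the counting was not stated to use strand, reads there cannot be told apart; Acad11 itself changed by -0.35 (log2, adjusted p = 0.0179).

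Ackr2 (chr9:121898355-121911074, ENSMUSG00000044534), a scavenger of inflammatory CC chemokines that lymphatic ECs are known to carry, changed least. It stood at 96.1, 79.2, 96.4 and 85.9 CPM in normoxia and 104, 107, 106 and 98.8 CPM in hyperoxia. The groups did not overlap, but the gap between the highest normoxia and the lowest hyperoxia library was small. The mean rose 1.17-fold, from 89.4 ± 8.39 to 104 ± 3.80 CPM (SD, n = 4 each; log2 0.22, SE 0.0661, edgeR adjusted p = 0.0237). Ackr2 no longer passed without normoxia 4 (adjusted p = 0.0697), hyperoxia 2 (0.0667) or hyperoxia 3 (0.0569). The same held with the Y-linked share as a covariate (0.0515) and with the AT2 score (0.800). Whether the rise of the lymphatic markers bears on Ackr2 was not tested. Ackr1, the atypical receptor known from venules and red cells, had 68 counts in all libraries together and was below the filter.

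Cxcr4, a receptor known for guiding stem cells, lymphocytes and sprouting vessels, fell. It lies at chr1:128588199-128592293 (ENSMUSG00000045382). It stood at 92.6, 89.9, 99.4 and 87.6 CPM in normoxia and at 52.4, 33.9, 37.7 and 38.2 CPM in hyperoxia. All hyperoxia libraries were below all normoxia libraries, and hyperoxia 1 was the highest of its group. The mean went from 92.4 ± 5.13 to 40.5 ± 8.13 CPM (SD, n = 4 each; 0.439-fold, log2 -1.19, SE 0.115, edgeR adjusted p = 2.43e-05). It passed in 19 of 20 alternative fits, and with the AT2 score the value was -1.48 (adjusted p = 0.0895).

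Because Ackr3 and Cxcr4 share a ligand, their levels per length were set against each other within each library. The ratio of Ackr3 to Cxcr4 FPKM was 1.16, 1.20, 1.16 and 1.16 in normoxia 1 to 4 and 4.19, 7.99, 6.59 and 6.50 in hyperoxia 1 to 4. The RNA of both receptors thus stood at nearly equal levels in each normoxia library, and that of Ackr3 was several times higher in each hyperoxia library. Protein levels and presence in the same cells were not measured. The ratio averaged 1.17 ± 0.0188 over the normoxia libraries and 6.32 ± 1.57 over the hyperoxia libraries (SD, n = 4 each), and this combines the changes of both genes rather than adding a further test.

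**Figure D2:**
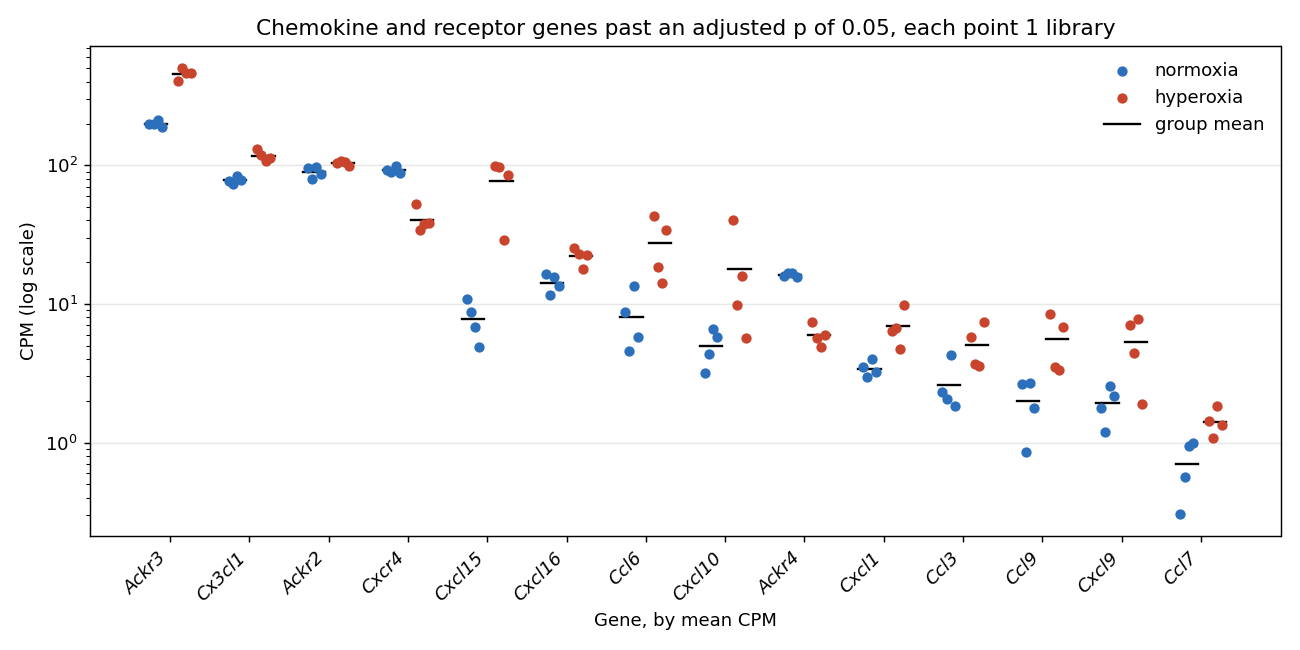
CPM (y axis, log scale) of the 14 genes past an adjusted p of 0.05 (x axis, by mean CPM), with 1 point per library, normoxia in blue and hyperoxia in red, and group means as lines. The groups are apart for Ackr3 (200 and 457 CPM), Cxcr4 (92.4 and 40.5 CPM) and Ackr4 (16.2 and 5.99 CPM), and overlap for Cxcl10, Ccl3 and Cxcl9.

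The other typical receptors gave no call. Ccr7, which leads dendritic cells and lymphocytes into lymphatic vessels, stood at 7.85 to 18.2 CPM in normoxia and 11.2 to 13.9 CPM in hyperoxia (log2 -0.022, edgeR adjusted p = 0.948). Cxcr5, the receptor of B cells for follicles, stood at 4.67 to 9.12 and 5.27 to 10.7 CPM (0.07, adjusted p = 0.874), and 3.30% of its exon bases overlap exons of Bcl9l on the opposite strand. Cx3cr1, the fractalkine receptor of monocytes and macrophages, stood at 3.36 to 12.1 and 4.81 to 9.60 CPM (0.05, adjusted p = 0.933). Ccr1, a receptor of monocytes and neutrophils for Ccl3, Ccl5, Ccl6 and Ccl9, stood at 1.19 to 3.18 and 2.49 to 5.88 CPM (0.67, adjusted p = 0.162). For each of these the groups overlapped, and the spread within normoxia was wide, with normoxia 3 or 1 highest and normoxia 2 lowest. The same libraries held the highest (237 CPM in normoxia 3) and the lowest (93.9 CPM in normoxia 2) sum of pan-leukocyte markers in normoxia, and the part of leukocyte RNA in these receptors was not tested.

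Receptors known mainly from leukocytes were otherwise low. Ccr2, Ccr10 and Cxcr2 were tested without passing, at a mean of under 1 FPKM. Ccr3, Ccr4, Ccr6, Ccr8, Ccr9, Ccr1l1, Cxcr1, Cxcr3, Cxcr6 and Xcr1 had between 1 and 65 counts over all libraries and were below the filter. At this depth no difference could be seen in them.

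Both ligands that are made as membrane-bound proteins rose, where 18.5% of all genes did. Cx3cl1 (fractalkine, chr8:94772009-94782427, ENSMUSG00000031778), which ECs and epithelial cells use to hold Cx3cr1-bearing cells, stood at 77.1, 73.7, 83.7 and 78.4 CPM in normoxia and 131, 118, 107 and 112 CPM in hyperoxia. The groups did not overlap. The mean rose 1.49-fold, from 78.2 ± 4.13 to 117 ± 10.5 CPM (SD, n = 4 each; log2 0.58, SE 0.0673, edgeR adjusted p = 8.74e-05). Of the 43 ligand rows examined, Cx3cl1 had the highest level in normoxia, 19.7 FPKM. With the AT2 score its value was 0.27 (adjusted p = 0.617).

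Cxcl16 (chr11:70453983-70459984, ENSMUSG00000018920), a scavenger receptor and ligand of Cxcr6, stood at 16.5, 11.6, 15.6 and 13.4 CPM in normoxia and 25.2, 23.1, 17.9 and 22.4 CPM in hyperoxia. Hyperoxia lay above normoxia throughout, with hyperoxia 3 the lowest of its group. The mean rose 1.55-fold, from 14.3 ± 2.22 to 22.1 ± 3.10 CPM (SD, n = 4 each; log2 0.64, SE 0.132, edgeR adjusted p = 0.00347). Exons of Zmynd15 on the opposite strand cover 18.3% of its exon bases, and Zmynd15 did not pass (-0.12, adjusted p = 0.367). With the AT2 score the value of Cxcl16 was -0.23 (adjusted p = 0.808). Its partner Cxcr6 had 58 counts in all and was below the filter.

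The largest rise among the 33 tested genes was that of Cxcl15, the CXC ligand also called lungkine, which is known from lung epithelium and attracts neutrophils. The gene lies at chr5:90794534-90803067 (ENSMUSG00000029375). It stood at 10.8, 8.71, 6.82 and 4.92 CPM in normoxia and 98.8, 96.4, 29.1 and 85.7 CPM in hyperoxia. All hyperoxia libraries were above all normoxia libraries, and hyperoxia 3 was far below the other three. The mean rose 9.97-fold, from 7.81 ± 2.51 to 77.5 ± 32.8 CPM (SD, n = 4 each; log2 3.32, SE 0.374, edgeR adjusted p = 7.18e-05), and from 3.64 to 36.2 FPKM. The AT2 marker sum was also lowest in hyperoxia 3 among the hyperoxia libraries (777 CPM against 2034 to 2314), and the alveolar type 1 marker sum was too (129 against 300 to 342 CPM). With the AT2 score the value of Cxcl15 was 0.026 (adjusted p = 0.983).

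**Figure D3:**
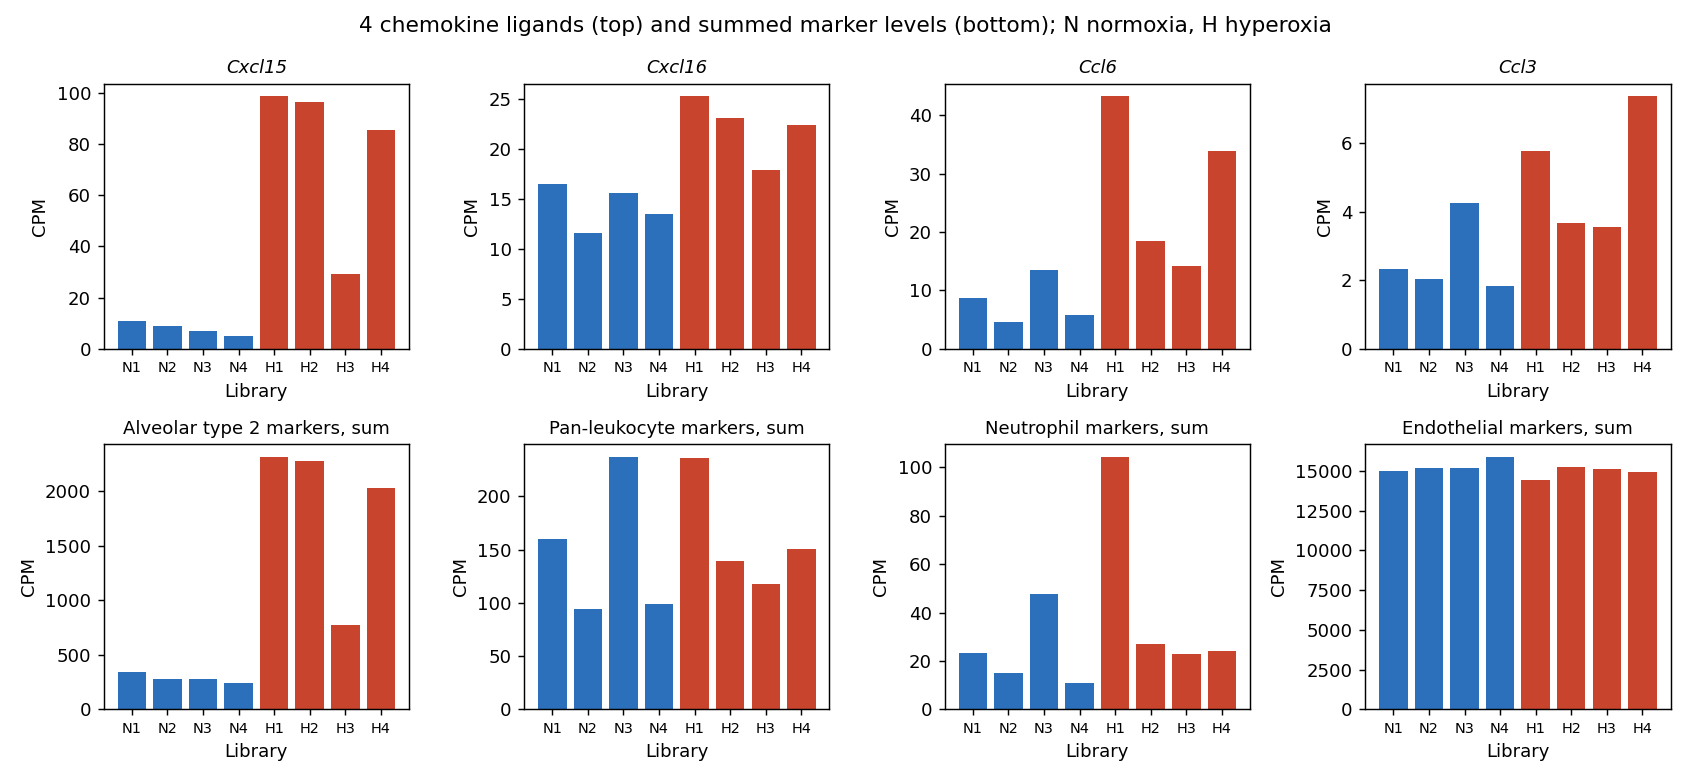
CPM (y axes, from 0) in each library (x axes, N normoxia, H hyperoxia) of 4 ligands in the upper row and of 4 marker lists, summed, in the lower row. Cxcl15 and the AT2 marker sum share their order in hyperoxia, with H3 lowest at 29.1 and 777 CPM, while Ccl6 and Ccl3 are highest in H1 and H4.

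The other tested ligands of neutrophils lie beside Cxcl15 in a cluster of 146.6 kb (chr5:90759360-90905938, with Cxcl5, Cxcl3, Cxcl15, Cxcl1 and Cxcl2). All 3 tested members had positive log2 fold changes, of 0.63 to 3.32, and 2 passed, where 18.5% of all genes passed as higher. Cxcl1 (chr5:90891241-90893115, ENSMUSG00000029380), a ligand of Cxcr2 that ECs and epithelial cells make under inflammatory signals, stood at 3.49, 2.96, 4.03 and 3.20 CPM in normoxia and 6.34, 6.68, 4.75 and 9.82 CPM in hyperoxia. Every hyperoxia library was above every normoxia library, hyperoxia 4 being highest. The mean rose 2.02-fold, from 3.42 ± 0.460 to 6.90 ± 2.12 CPM (SD, n = 4 each; log2 1.01, SE 0.216, edgeR adjusted p = 0.00413), and with the AT2 score the value was -0.14 (adjusted p = 0.947).

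Cxcl2, a ligand of the same receptor, stood at 10.2, 6.54, 12.4 and 5.25 CPM in normoxia and 16.1, 10.02, 9.73 and 17.5 CPM in hyperoxia. The groups overlapped, hyperoxia 1 and 4 standing above the rest (log2 0.63, SE 0.279, edgeR adjusted p = 0.102). It passed without normoxia 3 (adjusted p = 0.0365), and also with DESeq2 (0.0493), without the filter (0.0410) and with a pan-leukocyte score as a covariate (0.0346). Cxcl3 and Cxcl5 had 6 and 1 counts in all.

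The promoters of inflammatory chemokines are textbook targets of NF-kB, a transcription factor switched on by inflammatory signals, so the sequences around their starts were read. The motif, GGGNNNTTCC on either strand, was chosen after the values had been seen. RefSeq promoters (GRCm38.p6, 250 bases before to 50 after the start) were matched for 45 of the 60 symbols. The motif was found in 9 of these 45 (20%) and in 5.56% of 32851 promoters. It was found in 3 of the 10 higher members with a promoter, which were Cxcl1, Cxcl10 and Ccl9, and also in Cxcl2, which did not pass. The other 5 symbols with the motif (Ccl1, Ccl20, Ccr3, Ccr6 and Cxcl3) were below the filter on low counts. These 4 promoters are printed 5′ to 3′ on the strand of the gene, with the matched bases in capitals, to show where the motif lies. Cxcl1 (chr5:90890995-90891294, plus strand) has 3 matches, of which 2 overlap on opposite strands. Cxcl2 (chr5:90903649-90903948, plus strand) has the same arrangement of an overlapping pair and 1 more match. Cxcl10 (chr5:92348840-92349139, minus strand) has 2 matches and Ccl9 (chr11:83578587-83578886, minus strand) has 1.
Cxcl1: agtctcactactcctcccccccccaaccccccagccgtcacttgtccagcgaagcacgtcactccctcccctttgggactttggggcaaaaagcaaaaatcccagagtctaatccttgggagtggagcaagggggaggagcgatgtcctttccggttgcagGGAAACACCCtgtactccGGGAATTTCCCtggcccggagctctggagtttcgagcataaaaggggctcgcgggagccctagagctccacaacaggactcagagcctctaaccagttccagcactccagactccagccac
Cxcl2: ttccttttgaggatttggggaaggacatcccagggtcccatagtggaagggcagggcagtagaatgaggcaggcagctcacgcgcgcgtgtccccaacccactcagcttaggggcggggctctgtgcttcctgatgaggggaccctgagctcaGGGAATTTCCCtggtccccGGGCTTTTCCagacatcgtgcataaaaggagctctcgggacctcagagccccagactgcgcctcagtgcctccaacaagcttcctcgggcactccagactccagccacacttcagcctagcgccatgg
Cxcl10: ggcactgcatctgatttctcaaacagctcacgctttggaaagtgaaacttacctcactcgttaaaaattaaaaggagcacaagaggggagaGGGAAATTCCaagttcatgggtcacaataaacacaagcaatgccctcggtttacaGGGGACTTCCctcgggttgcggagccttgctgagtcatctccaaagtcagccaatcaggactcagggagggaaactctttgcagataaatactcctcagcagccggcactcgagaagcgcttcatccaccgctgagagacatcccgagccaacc
Ccl9: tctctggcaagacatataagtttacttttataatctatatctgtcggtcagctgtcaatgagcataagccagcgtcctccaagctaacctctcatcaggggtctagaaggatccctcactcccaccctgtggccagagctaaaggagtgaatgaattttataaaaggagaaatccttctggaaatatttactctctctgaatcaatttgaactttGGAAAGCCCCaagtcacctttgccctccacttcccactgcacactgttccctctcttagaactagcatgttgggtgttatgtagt
The overlapping pair begins 71 bases before the start of Cxcl1 and 97 bases before the start of Cxcl2. The matches of Cxcl10 begin 159 and 104 bases before its start, and that of Ccl9 begins 35 bases before. An AP-1 motif, TGANTCA, was in 9 of the 45 promoters, in 3 of the 10 higher members and in 7.81% of all, and an interferon-response motif, GAAANNGAAA, was in 3 of the 45 (Ccl19, Cxcl10 and Cxcl14) and in 3.44% of all. A match is a string of letters in this window and not a measured binding site.

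The interferon-inducible ligands of Cxcr3, which draw activated T cells, were higher on average but differed widely between hyperoxia libraries. Cxcl10 (chr5:92346638-92348889, ENSMUSG00000034855) stood at 3.18, 4.38, 6.60 and 5.74 CPM in normoxia and 39.97, 9.80, 15.9 and 5.66 CPM in hyperoxia. Hyperoxia 4 lay within the normoxia range, while hyperoxia 1 was far above all others. The mean rose 3.56-fold, from 4.98 ± 1.51 to 17.8 ± 15.3 CPM (SD, n = 4 each; log2 1.83, SE 0.521, edgeR adjusted p = 0.0187). Without hyperoxia 1 the log2 fold change was 1.06 (adjusted p = 0.0318), and the call was lost without normoxia 1 (0.0509) or normoxia 2 (0.0517), with limma-voom (0.0983), on log2 FPKM with limma (0.0520) and with the AT2 score (1.47, 0.745). Exons of Art3 on the opposite strand cover 5.91% of its exon bases, and Art3 rose too (1.17, adjusted p = 0.00162).

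Cxcl9 (chr5:92321347-92328079, ENSMUSG00000029417) stood at 1.78, 1.19, 2.57 and 2.15 CPM in normoxia and 7.08, 4.42, 7.78 and 1.89 CPM in hyperoxia. Again hyperoxia 4 lay within the normoxia range and the other three above it. The mean rose 2.74-fold, from 1.92 ± 0.585 to 5.29 ± 2.69 CPM (SD, n = 4 each; log2 1.45, SE 0.400, edgeR adjusted p = 0.0160). With limma-voom the adjusted p was 0.0664, and with the AT2 score the value was 2.62 (adjusted p = 0.293). Their receptor Cxcr3 had 62 counts in all libraries and was below the filter.

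Among the CC ligands best known from macrophages, 3 of 5 neighbours on chromosome 11 rose, against 18.5% of all genes tested. They lie in 138.9 kb (chr11:83525778-83664683), and all 5 members (Ccl5, Ccl9, Ccl6, Ccl3 and Ccl4) were tested, with log2 fold changes of 0.18 to 1.76. Ccl6 (chr11:83587882-83593087, ENSMUSG00000018927), a ligand of Ccr1 made by myeloid cells of the mouse, stood at 8.69, 4.55, 13.4 and 5.74 CPM in normoxia and 43.3, 18.4, 14.1 and 33.9 CPM in hyperoxia. The groups were apart, though hyperoxia 3 was close to normoxia 3. The mean rose 3.38-fold, from 8.10 ± 3.95 to 27.4 ± 13.6 CPM (SD, n = 4 each; log2 1.76, SE 0.393, edgeR adjusted p = 0.00531).

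Ccl9 (chr11:83572919-83578636, ENSMUSG00000019122), another mouse ligand of Ccr1, stood at 2.63, 0.854, 2.69 and 1.77 CPM in normoxia and 8.51, 3.51, 3.32 and 6.82 CPM in hyperoxia. The groups did not overlap, and the order of the hyperoxia libraries, 1 above 4 above 2 above 3, was that of Ccl6. The mean rose 2.79-fold, from 1.98 ± 0.864 to 5.54 ± 2.55 CPM (SD, n = 4 each; log2 1.48, SE 0.389, edgeR adjusted p = 0.0126). With the AT2 score Ccl6 and Ccl9 had values of -0.57 (adjusted p = 0.856) and -0.43 (0.902).

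Ccl3 (chr11:83647844-83649355, ENSMUSG00000000982) and Ccl4, which attract monocytes and T cells, were both high in normoxia 3 among the normoxia libraries. Ccl3 stood at 2.33, 2.05, 4.25 and 1.82 CPM in normoxia and 5.77, 3.68, 3.55 and 7.38 CPM in hyperoxia. Normoxia 3 lay above hyperoxia 2 and 3, so the groups overlapped. The mean rose 1.95-fold, from 2.61 ± 1.11 to 5.09 ± 1.83 CPM (SD, n = 4 each; log2 0.96, SE 0.316, edgeR adjusted p = 0.0358). Ccl3 no longer passed without normoxia 1 (0.0792), normoxia 2 (0.0921), normoxia 4 (0.0978), hyperoxia 1 (0.0746) or hyperoxia 4 (0.108). With the AT2 score the value was -0.24 (0.942).

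Ccl4 stood at 1.35, 0.854, 3.36 and 0.939 CPM in normoxia and 5.02, 2.21, 2.80 and 4.83 CPM in hyperoxia. Normoxia 3 was again high, and the groups overlapped (log2 1.19, SE 0.434, edgeR adjusted p = 0.0545). Without normoxia 3 the value was 1.83 (adjusted p = 0.00356), and the gene also passed without hyperoxia 2 (0.0437), with DESeq2 (0.0187), without the filter (0.0176), with limma-voom (0.0357) and with limma on log2 FPKM (0.0422). Ccl5, a T cell product, stood at 0.341 to 2.57 CPM in normoxia and 0.943 to 2.28 CPM in hyperoxia (0.18, adjusted p = 0.841). The summed pan-leukocyte markers were highest in normoxia 3 (237 CPM) and hyperoxia 1 (236 CPM), and the neutrophil marker sum was highest in the same libraries (47.6 and 104 CPM). The 9 macrophage and monocyte markers summed to 134 to 222 CPM in normoxia and 130 to 223 CPM in hyperoxia, with 2 higher and 1 lower. Chil3 (mean 19.4 to 32.7 CPM) and Marco (1.58 to 4.73 CPM) were higher, both with overlap, and Cd68 (40.8 to 25.7 CPM) was lower. The part of such cells in the CC ligands was not tested. With a pan-leukocyte score as a covariate 13 members were higher and 2 were lower, Ccl4 among the higher (adjusted p = 0.00737).

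**Figure D4:**
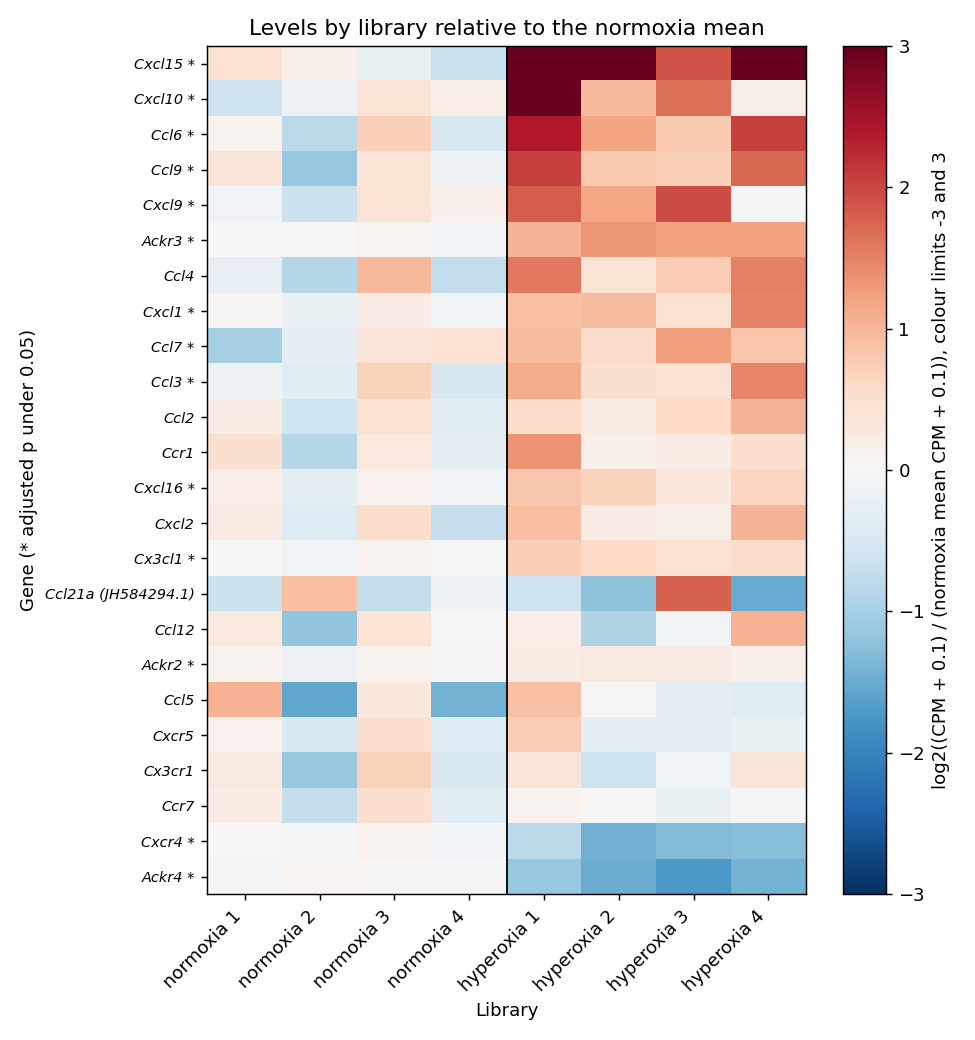
Heat map of 24 genes (rows) in 8 libraries (columns), coloured by log2 of the CPM (plus 0.1) over the normoxia mean (scale beside the map), with an asterisk at genes of adjusted p under 0.05. All hyperoxia libraries are above 1 for Ackr3 (1.02 to 1.33), and below 0 for Cxcr4 (-1.44 to -0.82) and Ackr4 (-1.72 to -1.13), while Cxcl10 runs from 0.18 in hyperoxia 4 to 2.98 in hyperoxia 1 and Ccl6 from 0.80 in hyperoxia 3 to 2.40 in hyperoxia 1.

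A further cluster of chromosome 11 (chr11:82035571-82305690) holds Ccl2, Ccl7, Ccl11, Ccl12 and Ccl8, which attract monocytes and eosinophils, and Ccl1. All 3 tested members had positive log2 fold changes and 1 passed, where 18.5% of all genes passed as higher. Ccl7 (chr11:82045712-82047525, ENSMUSG00000035373), a ligand of Ccr2, stood at 0.306, 0.569, 0.951 and 0.994 CPM in normoxia and 1.43, 1.08, 1.83 and 1.33 CPM in hyperoxia. The groups did not overlap, but the margin was narrow. The mean rose 1.98-fold, from 0.705 ± 0.328 to 1.42 ± 0.314 CPM (SD, n = 4 each; log2 0.99, SE 0.348, edgeR adjusted p = 0.0476). Ccl7 no longer passed without normoxia 1 (0.0936), normoxia 2 (0.109), hyperoxia 1 (0.0833), hyperoxia 2 (0.0544), hyperoxia 3 (0.114) or hyperoxia 4 (0.0788). The same held with DESeq2 (0.0545), without the filter (0.0575), with the pan-leukocyte score (0.0538), with the Y-linked share (0.0983) and with the AT2 score (2.25, 0.335).

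Ccl2, the main ligand of Ccr2 for monocytes, stood at 0.626 to 1.40 CPM in normoxia and 1.19 to 2.11 CPM in hyperoxia, with overlap (log2 0.67, edgeR adjusted p = 0.108). Ccl12, a mouse ligand of the same receptor, stood at 0.398 to 1.40 and 0.510 to 2.22 CPM (0.25, adjusted p = 0.712). Ccl8, Ccl11 and Ccl24, the last on chromosome 5, had 83, 10 and 75 counts in all and were below the filter, and Ccl1 had 1 count.

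Lymphoid and mucosal ligands, which place lymphocytes and dendritic cells in steady state, showed no call among 4 tested of 15 rows. The Ccl21a row on an unplaced scaffold (ENSMUSG00000095320), whose product lymphatic ECs release for Ccr7, stood at 2.39, 7.23, 2.24 and 3.42 CPM in normoxia and 2.46, 1.59, 13.3 and 1.28 CPM in hyperoxia. Normoxia 2 and hyperoxia 3 were high and the rest were close together (log2 0.28, edgeR adjusted p = 0.783), and without hyperoxia 3 the value was -1.11 (adjusted p = 0.0738). The mouse genome holds near-identical Ccl21 copies, so reads may be split between rows, and this value is uncertain. The Ccl21a row of chromosome 4 had 21 counts in all, and the rows of Ccl21b and Ccl21c had 0 to 11. Of the 8 rows at 0 in all libraries, 7 belonged to this class (both rows of Ccl19, 2 of Ccl27a, and rows of Ccl21b, Ccl21c and Ccl27b). A count of 0 in a single library allows an expected count of up to about 3 in it, and 0 in all libraries allows less. Ccl25, Ccl28 and the Ccl27a row of chromosome 4 were tested without passing, and so were Ccl22 and Cxcl14 of other classes. Ccl17, Ccl20, Cxcl13, Cxcl17 and Xcl1 had 47, 2, 16, 28 and 7 counts in all and were below the filter, and Ccl26 was the remaining row at 0.

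Few ligands could be set beside a receptor that was well measured. Cx3cl1 rose while Cx3cr1 gave no call, and Cxcl16, Cxcl9 and Cxcl10 rose while Cxcr6 and Cxcr3 were below the filter. The Ccr1 ligands Ccl3, Ccl6 and Ccl9 rose while Ccr1 itself was at 0.67 without passing. Ackr4 fell while its ligands Ccl19 and Ccl21 were at 0, near 0 or uncertain and Ccl25 did not pass. The ligand counts here say which RNA was in the isolate, not which cell made it.

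Genes of the chemokine system with other names were read as well. Of 11 listed, 10 were tested, of which 4 rose (40%, against 18.5% of all genes) and 2 fell (20%, against 17.1%), with a median of 0.32. Cd74, the receptor of the chemokine-like cytokine Mif, stood at 189 ± 39.1 and 195 ± 51.5 CPM in normoxia and hyperoxia (0.04, edgeR adjusted p = 0.882). Mif itself (0.37, adjusted p = 0.0108), Cmklr1 (0.57, 0.00822) and Cklf (0.27, 0.0239) rose, and alternative fits are not given for them. Gpr182, an atypical chemokine receptor of ECs, fell from 117 ± 5.79 to 87.9 ± 11.7 CPM (SD, n = 4 each; log2 -0.41, SE 0.0862, adjusted p = 0.00368), and with the AT2 score the value was -0.11 (0.894). Ccrl2, which presents chemerin, fell from 48.4 ± 2.25 to 37.0 ± 7.28 CPM with overlap (-0.39, edgeR adjusted p = 0.0225). It no longer passed without normoxia 1, normoxia 2, hyperoxia 2 or hyperoxia 4 and with the AT2 score (0.659). Rarres2, which encodes chemerin itself, rose from 0.821 ± 0.317 to 2.33 ± 0.239 CPM (1.504, adjusted p = 0.00203), with 1.02 (0.658) under the AT2 score.

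Genes of the intracellular chain from receptor to migration changed in both directions, as did all genes tested. Of 46 tested genes, 8 rose (17.4%, against 18.5% of all genes) and 12 fell (26.1%, against 17.1%), and the median was -0.011. The abundant G protein subunits Gnai2 (0.01, edgeR adjusted p = 0.871) and Gnb1 (0.07, 0.225) and the small GTPase Rac1 (-0.11, 0.0745) did not pass. Plcb2, a phospholipase activated by G protein subunits, fell from 24.8 ± 1.27 to 11.8 ± 0.749 CPM (SD, n = 4 each; log2 -1.07, SE 0.0762, adjusted p = 2.94e-06), with the same size under the AT2 score (-1.08, 0.0824). The kinase Src rose from 4.58 ± 0.728 to 13.005 ± 2.21 CPM (1.51, adjusted p = 4.48e-05), with 0.69 (0.521) under the AT2 score. Pak1, a kinase downstream of Rac1, rose by 1.02 (adjusted p = 0.0302), a call lost without normoxia 1, normoxia 4, hyperoxia 1, hyperoxia 2 or hyperoxia 4 and with the AT2 score (0.20, 0.953).

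Enzymes that cut chemokines moved in both directions. Of 6 tested, 3 rose (50%, against 18.5% of all genes) and 2 fell (33.3%, against 17.1%), with a median of 0.29. Dpp4, a surface peptidase that trims and inactivates several chemokines, fell from 277 ± 12.5 to 160 ± 9.33 CPM (SD, n = 4 each; log2 -0.79, SE 0.0541, edgeR adjusted p = 2.37e-06), and it passed in all 20 alternative fits. Of the sheddases of Cx3cl1 and Cxcl16, Adam10 rose from 183 ± 4.44 to 210 ± 13.1 CPM (0.20, adjusted p = 0.0114) and Adam17 fell from 118 ± 4.90 to 103 ± 5.07 CPM (-0.19, adjusted p = 0.0126). The metalloproteinase Mmp2 rose from 62.1 ± 9.60 to 153 ± 26.7 CPM (1.30, adjusted p = 3.78e-05), and Mmp12, known from macrophages, rose by 1.32 (adjusted p = 0.00290). With the AT2 score Adam10 (0.22, adjusted p = 0.641), Adam17 (-0.19, 0.703), Mmp2 (0.35, 0.625) and Mmp12 (1.76, 0.354) no longer passed. The fibroblast marker sum was 114 to 222 CPM in normoxia and 172 to 407 CPM in hyperoxia, with 4 of 6 tested markers higher, and its part in Mmp2 was not tested.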

How the data were processed

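RNA from CD31-bead isolates of mouse lung was sequenced as paired ends, in 4 normoxia and 4 hyperoxia libraries; titles gave the groups. The authors deposited a table of whole-number gene counts and a table of FPKM for the same genes; the submitters' processing notes name HISAT2 2.0.5, featureCounts 1.5.0-p3 and build mm10, and strand use and the treatment of multi-mapping reads are not given in the sources used here. The deposited FPKM equalled the count over gene length and library total times a constant per library of 0.974 to 1.015, so FPKM was used only to compare levels between genes and as an alternative.

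Counts were tested with edgeR 4.0.16 (R 4.3.3; quasi-likelihood test, TMM normalization, filterByExpr defaults, group as the only term), with Benjamini-Hochberg adjustment over the 15564 genes kept. A gene passed at an adjusted p under 0.05 and was called if its log2 fold change was also 1 or more in size. CPM is the count over the TMM-normalized library size. The SE follows from the F statistic. The study had used DESeq2, and DESeq2 1.42.0, limma-voom 3.58.1 and limma on log2(FPKM + 0.1) were alternatives, beside other normalizations and filters, protein-coding genes only, AT2 and pan-leukocyte marker scores, the replicate block and leaving out each library. The Y-linked share as a covariate was added after the data had been seen. The fits were tested on simulated data. Library totals of 16098086 to 18300730 counts set the precision, and in genes with few counts small differences cannot be seen.

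The members and the lists were chosen with earlier results of these data known. Members with an adjusted p under 0.05 were given in each library, other tested members with a mean of at least 1 FPKM by values, and the rest by counts and symbols; 1 tested gene is included in the counts and is otherwise not reported here. From other lists, the 3 most abundant genes, up to 5 called genes and partners of members were named, with further genes of the chemokine system that rose. All 66 members had the same coordinates in GENCODE M21 (GRCm38). Genes whose exons overlap a named member were named for that reason.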

Additional observations from a re-analysis of the deposited data

Results flagged for a closer look

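In 3 of 80 groups of 4 libraries, 1 library stood apart from the others by Dixon's test at the 95% level, where chance gives about 4. Cxcr5 was at 10.7 CPM in hyperoxia 1 and between 5.27 and 5.60 CPM in the other three of the group. The Ccl21a row on an unplaced scaffold was at 13.3 CPM in hyperoxia 3 and at 1.28 to 2.46 CPM in the others. The summed neutrophil markers were at 104 CPM in hyperoxia 1 and at 22.8 to 27.1 CPM in the others.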

How the results depend on the processing

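Of 20 alternatives, the AT2 score was the setting that moved the counts of genes past the thresholds by over 1.5 times: 2 higher and 1 lower, and with the fold threshold also 2 and 1. Ackr3 (1.18, adjusted p = 0.0182) and Ackr4 (-2.07, 0.0237) passed there, with the Ccl21a row on an unplaced scaffold (4.96, 0.0188), and the log2 fold changes of Ccl12 (-0.59), Ccl3 (-0.24), Ccl5 (-2.31), Ccl6 (-0.57), Ccl9 (-0.43), Ccr1 (-0.77), Cx3cr1 (-0.76), Cxcl1 (-0.14), Cxcl16 (-0.23), Cxcl2 (-0.69) and Cxcr5 (-1.05) were reversed; the score differed between the groups without overlap. The other alternatives gave 9 to 14 higher genes and 2 or 3 lower genes. Leaving out 1 library at a time gave 9 to 14 higher and 2 to 3 lower genes, and 5 to 10 and 2 to 3 with the fold threshold. The third lower gene was Ccl24, which entered without normoxia 2 or hyperoxia 3.

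The replicate numbers did not pair the libraries: deviations of same-numbered libraries correlated at 0.119, 0.036, -0.125 and -0.140, and not every library correlated best with its own number. With the replicate block 9 genes were higher and 2 lower, 5 and 2 with the fold threshold, and Cxcl10 (adjusted p = 0.0531), Ccl3 (0.0667) and Ccl7 (0.0525) no longer passed.

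Further reversals were all in genes that did not pass: with the block Ccl21a -0.19 and Ccr7 0.035; on log2 FPKM Ccl21a -0.24 and Ccr7 0.049; with voom Ccl21a -0.26 and Ccr7 0.051; with the leukocyte score Cx3cr1 -0.014 and Cxcr5 -0.078; with the Y-linked share Ccl21a -1.02, Ccr7 0.0056 and Cd74 -0.11; with upper-quartile factors Gnai2 -0.010 and with protein-coding genes only Gnai2 -0.0061. Leaving out 1 library gave values on both sides of 0 for Ccl5 (-0.20 to 0.84), Ccl12 (-0.20 to 0.51), Cx3cr1 (-0.20 to 0.38), Cxcr5 (-0.25 to 0.29), Cd74 (-0.11 to 0.18), Ccr7 (-0.2 to 0.19), Ccl21a (-1.11 to 0.79) and Gnai2 (-0.017 to 0.022). The cause was not tested. Over the named genes and these alternatives, 666 values kept their direction and side of the threshold, 53 no longer passed, 15 newly passed and 45 were reversed.

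With 4 libraries per group and members down to under 1 CPM, small changes cannot be seen, and 33 of 66 rows did not reach the count filter of the main test.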
